A study of Mus musculus with 20 samples.

Results

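DNA replication and S phase genes were examined in 2 mouse hypothalamic cell lines exposed to serotonin. The members were 40 genes listed by role, from origin licensing to nucleotide supply and chromatin assembly. Each was read from a probe set whose only gene symbol is the member's, and a gene with several such probe sets was read from the one that was brightest on average over the 20 arrays. Of the 40 genes, 36 were measured in this way, among 18820 genes tested. The probe sets of the other 4, Gins2, Rfc4, Tyms and Ccne2, carry the symbol of another gene as well, and these genes were not analysed here.

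The arrays carried total RNA of mHypoE-46 (E46), which the labels describe as sensitive to serotonin, and of mHypoA-2/12 (A2/12), described as unresponsive. There were 5 groups of 4 arrays: E46 controls (0 µg/ml), E46 with serotonin labelled 1 µg/ml, E46 with serotonin labelled 100 µg/ml, A2/12 with serotonin labelled 100 µg/ml and A2/12 controls. All cells were grown to near confluence, moved to medium without serum and harvested after a 24 h exposure, so every group, controls included, was serum-deprived. Another label of the E46 serotonin arrays gives the doses the other way round (1 where the title has 100, and 100 where it has 1), and the doses below follow the titles. Each line is a single immortalised cell line. Whether the 4 arrays within a group represent separate cultures is not stated, so the spread behind each p-value is that between arrays, which may be technical, and their number limits the precision.

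Before a cell copies its DNA, the origin recognition complex, Cdc6 and Cdt1 load the ring-shaped Mcm2-7 helicase onto origins, a step called licensing that geminin blocks by binding Cdt1. At the start of S phase, Cdc45, the GINS complex and Mcm10 turn the helicase on, primase and the polymerases copy the strands on the Pcna clamp, and Fen1 and Lig1 join the fragments of the lagging strand. Many of these genes are transcribed at the G1/S boundary by E2F factors once cyclin-dependent kinases release them from Rb, and thymidine kinase and ribonucleotide reductase supply the nucleotides.

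Promoter windows of RefSeq, 250 bases before to 50 bases after the annotated start in build GRCm38.p6, were available for 30 of the 36 measured members. They are shown for 3 members that were higher in both lines with serotonin labelled 100 (Orc1, Cdt1 and Mcm10) and 3 that were lower in both (Tk1, Rrm2 and Mcm6). All but Mcm6 were taken for the largest changes among members called alike in both lines that have 1 window. Orc2 has 2 windows and was passed over. Mcm6 was taken because its window holds the most E2F octamers among members with 1 window, and not for its response. Each is printed 5′ to 3′ on the strand of the gene. Capitals mark any of the E2F octamers TTTGGCGC, TTTCCCGC, TTTCGCGC and TTTGCCGC and the CCAAT box, searched on both strands.
Orc1 (chr4:108579204-108579503, + strand): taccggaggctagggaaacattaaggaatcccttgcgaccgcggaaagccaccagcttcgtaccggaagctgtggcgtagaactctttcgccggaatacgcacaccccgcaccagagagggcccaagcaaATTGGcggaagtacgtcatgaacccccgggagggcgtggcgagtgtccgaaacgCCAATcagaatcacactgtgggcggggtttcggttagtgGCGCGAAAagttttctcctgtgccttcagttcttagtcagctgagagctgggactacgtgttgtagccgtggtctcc
Cdt1 (chr8:122567765-122568064, + strand): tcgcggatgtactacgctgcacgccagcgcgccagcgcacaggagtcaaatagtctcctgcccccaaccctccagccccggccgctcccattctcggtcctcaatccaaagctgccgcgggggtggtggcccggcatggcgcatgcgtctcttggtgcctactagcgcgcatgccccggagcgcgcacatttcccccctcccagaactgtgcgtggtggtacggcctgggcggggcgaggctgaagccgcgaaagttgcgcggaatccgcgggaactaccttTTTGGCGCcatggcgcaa
Mcm10 (chr2:5012742-5013041, - strand): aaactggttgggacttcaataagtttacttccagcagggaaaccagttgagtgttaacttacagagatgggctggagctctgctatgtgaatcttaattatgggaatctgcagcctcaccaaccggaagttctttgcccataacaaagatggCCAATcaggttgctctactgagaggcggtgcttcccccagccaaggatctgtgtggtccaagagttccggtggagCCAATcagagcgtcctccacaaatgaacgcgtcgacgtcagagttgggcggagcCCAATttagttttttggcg
Tk1 (chr11:117825965-117826264, - strand): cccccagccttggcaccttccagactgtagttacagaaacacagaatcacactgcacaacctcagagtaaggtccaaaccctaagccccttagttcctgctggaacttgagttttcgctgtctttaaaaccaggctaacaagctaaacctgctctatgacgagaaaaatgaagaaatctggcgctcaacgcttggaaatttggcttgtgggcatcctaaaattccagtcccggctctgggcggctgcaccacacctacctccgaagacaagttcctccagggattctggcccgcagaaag
Rrm2 (chr12:24708004-24708303, + strand): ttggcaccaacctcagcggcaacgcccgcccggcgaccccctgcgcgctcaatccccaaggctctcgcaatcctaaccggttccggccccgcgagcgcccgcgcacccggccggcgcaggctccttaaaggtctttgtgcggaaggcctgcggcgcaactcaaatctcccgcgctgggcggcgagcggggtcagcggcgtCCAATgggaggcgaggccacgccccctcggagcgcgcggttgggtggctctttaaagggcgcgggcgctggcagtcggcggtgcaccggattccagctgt
Mcm6 (chr1:128359656-128359955, - strand): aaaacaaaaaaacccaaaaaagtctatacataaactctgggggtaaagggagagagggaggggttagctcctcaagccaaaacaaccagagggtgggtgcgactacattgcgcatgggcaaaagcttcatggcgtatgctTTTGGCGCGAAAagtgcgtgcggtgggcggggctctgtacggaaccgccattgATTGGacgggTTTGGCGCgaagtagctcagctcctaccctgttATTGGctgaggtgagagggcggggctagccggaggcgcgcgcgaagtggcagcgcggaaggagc

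An E2F octamer stood in a window of 12 of the 30 members (40%), against 524 of the 14749 genes tested that have a window (3.6%). Some genes have more than 1 window, and a match in any of them counted. The CCAAT box was found for 63.3% of the members and 41.9% of all genes with a window. For comparison, TTTGAA was found for 13.3% of the members and 17.3% of all, and TGATGNAA for 6.7% and 3.6%. The Mcm6 window held 3 octamers, of which 2 overlap, and the Orc1 and Cdt1 windows held 1 each. None of the 4 octamers was found in the Tk1, Rrm2 or Mcm10 window, which says only that these letters are not in these windows. A match is a description of the sequence and not evidence of binding. The 12 members with an octamer moved both ways with serotonin labelled 100: 2 rose and 4 fell in E46 (median log2 change -0.12, with 39.6% of all genes called), and 5 rose and 3 fell in A2/12 (median 0.07, with 45.9% of all genes called). Of the 18 without one, 2 rose and 7 fell in E46 (median -0.09), and 5 rose and 5 fell in A2/12 (median 0.08).

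All values below are log2 expression levels or log2 changes, and a gene was called at a limma adjusted p below 0.05 (Benjamini-Hochberg over all genes tested). "Rose" and "fell" are used only of called genes. Any pair of arrays correlated at 0.933 or more, and arrays of the same group at 0.990 or more. All 36 measured members lay above the level under which 95% of 1157 odorant and pheromone receptor genes fell (4.35 to 4.66 over the groups). Of the 18820 genes tested, 13368 lay above it. The shares of all genes set beside the counts of members also take in the genes below it, which members do not include. Shares among the genes above it are not given here. The labels call the cells neuronal. Of 11 neuron markers, 5 lay above that level in the controls of each line (Map2 highest, at 10.43 ± 0.06 in E46 and 9.62 ± 0.07 in A2/12, SD, n = 4 each), and Stmn2 averaged 5.09 ± 0.09 in E46 controls and 9.14 ± 0.06 in A2/12 controls. The other 6, among them Rbfox3, Snap25 and Dcx, were not above it in the controls of either line. Of the control arrays, 2 stood apart for markers of other cells. In A2/12 control replicate 4 the mean level of macrophage markers was 6.27, against 4.34 to 4.40 in the other A2/12 controls, and in E46 control replicate 3 that of intestinal markers was 5.22, against 3.93 to 4.05. Counts of called members over the whole list are also given without these 2 arrays for the comparisons that use the controls. Counts by role, of groups without overlap, over both lines together, of other pathway genes and of markers keep them.

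With serotonin labelled 100 in E46, 4 members rose and 14 fell, while 18 were not called. All genes tested were called in 39.6% of cases (20.3% higher and 19.3% lower), and the median change was -0.09 over the members and -0.00 over all genes. The members that rose act in licensing or helicase activation (Orc1, Orc2, Cdt1 and Mcm10), and those that fell most were Tk1, Ccne1, Rrm2, Cdc6, Rrm1 and Lig1. Without the 2 control arrays above, 4 rose and 12 fell. In A2/12, 12 members rose, 9 fell and 15 were not called, beside 45.9% of all genes (24.8% higher and 21.1% lower). The median change in A2/12 was 0.10 over the members and 0.00 over all genes, and without the same 2 arrays 10 rose and 8 fell. The groups did not overlap for 18 members in E46 (40.4% of all genes) and for 20 in A2/12 (43.3% of all genes).

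**Figure D1:**
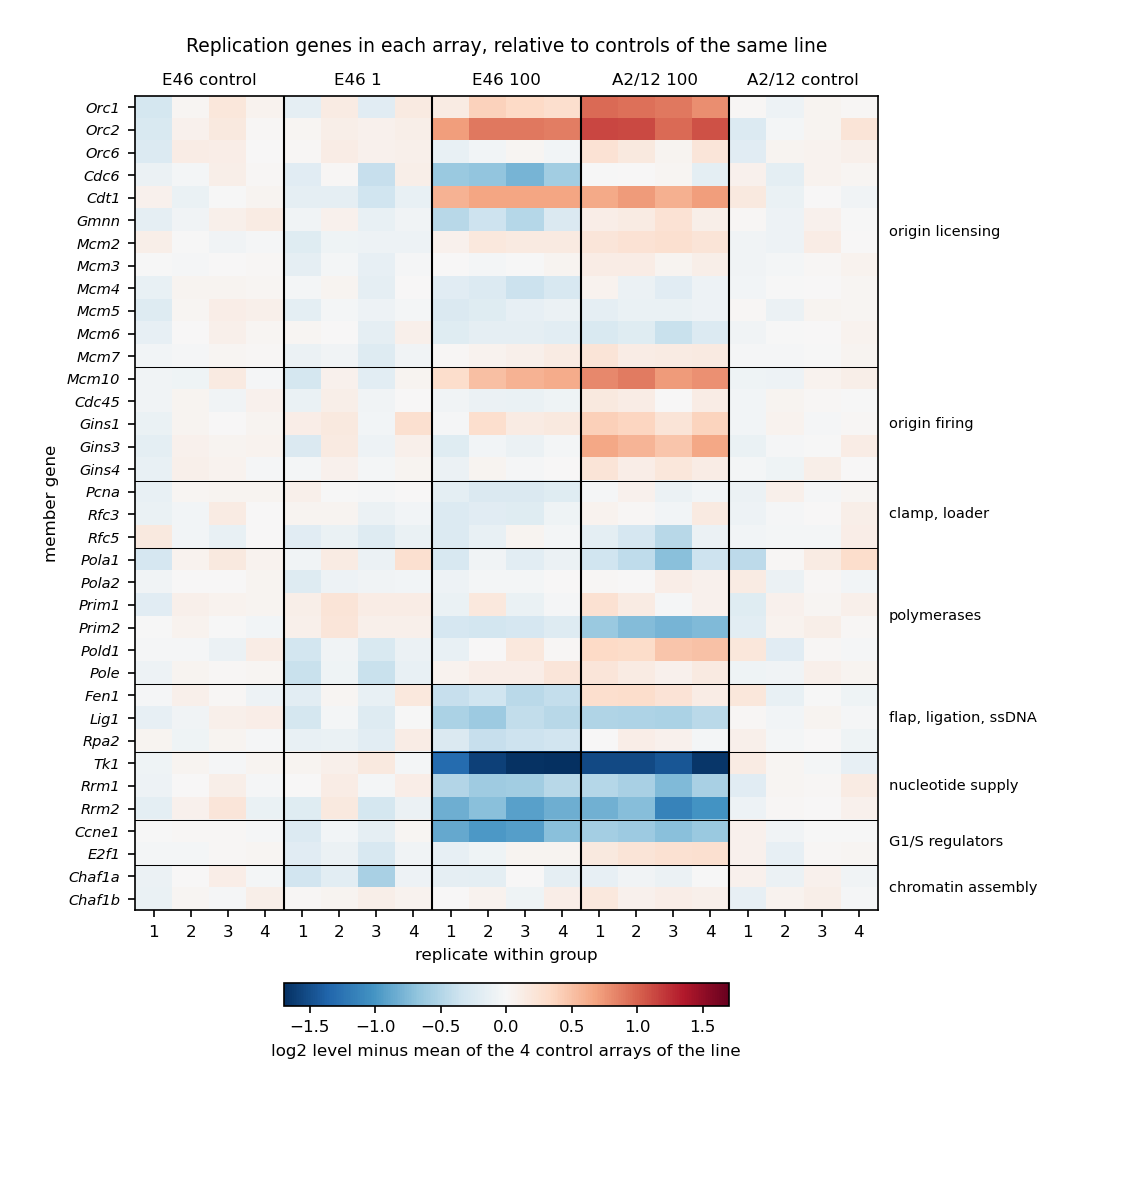
Level of each measured member (rows, by role) on each of the 20 arrays (columns, by group), as the log2 difference from the mean of the controls of the same line. Tk1, Rrm1, Rrm2, Ccne1 and Lig1 lie below the controls on all arrays with serotonin labelled 100 in both lines, while Orc2, Cdt1 and Mcm10 lie above them.

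The 3 members that supply deoxynucleotides fell in both lines, and Tk1 had the largest decrease of all members in each. Tk1 encodes the cytosolic thymidine kinase of the salvage pathway, a textbook S phase gene. Its level was 8.70, 8.42, 8.33 and 8.30 in E46 with serotonin labelled 100, against 9.93, 10.05, 9.99 and 10.06 in E46 controls. In A2/12 it was 8.67, 8.67, 8.76 and 8.56 with serotonin labelled 100, against 10.35, 10.24, 10.18 and 10.07 in controls. Every serotonin array lay more than 1 log2 unit below every control array of its line. Tk1 fell by 1.57 ± 0.08 in E46 (SE, 4 arrays in each group; adjusted p = 9.78e-12, 2.97-fold) and fell by 1.54 ± 0.08 in A2/12 (adjusted p = 3.02e-12, 2.92-fold). A second Tk1 probe set changed by -1.60 in E46 and -1.62 in A2/12.

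Rrm1 and Rrm2 encode the large and small subunits of ribonucleotide reductase, which turns ribonucleotides into deoxyribonucleotides. Rrm2 stood at 8.54, 8.66, 8.45 and 8.54 in E46 with serotonin labelled 100, against 9.20, 9.44, 9.58 and 9.26 in controls. Its level in A2/12 was 8.33, 8.43, 8.02 and 8.14 with serotonin labelled 100, against 9.06, 9.17, 9.16 and 9.22 in controls. Neither pair of groups overlapped. Rrm2 changed by -0.82 ± 0.10 in E46 (adjusted p = 1.56e-06) and by -0.92 ± 0.10 in A2/12 (adjusted p = 2.04e-07). Rrm1 averaged 10.66 ± 0.07 with serotonin labelled 100 and 11.20 ± 0.08 in controls in E46 (SD, n = 4 each), a called change of -0.54, and 10.49 ± 0.11 and 11.08 ± 0.14 in A2/12, a called change of -0.59. The responses of the 3 genes were close in both lines: the E46 minus A2/12 difference was -0.03 for Tk1 (95% confidence interval -0.28 to 0.22), 0.05 for Rrm1 (-0.18 to 0.27) and 0.10 for Rrm2 (-0.21 to 0.41), none of them called.

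Other genes of nucleotide supply moved mostly the other way. Of 20 such genes measured from a separate list, 12 rose and 4 fell in E46 (median 0.35), and 15 rose and 4 fell in A2/12 (median 0.53). Among all genes tested, 20.3% were higher and 19.3% lower in E46, and 24.8% higher and 21.1% lower in A2/12. Cad, which starts pyrimidine synthesis, rose by 0.96 ± 0.08 in E46 and 0.89 ± 0.08 in A2/12. Ctps, which makes CTP from UTP, rose by 0.93 ± 0.09 and 1.13 ± 0.09, and the dCMP deaminase gene Dctd by 1.21 ± 0.08 and 1.00 ± 0.08. Some close relatives of the members were looked at after their values were seen. Tk2, the mitochondrial thymidine kinase, rose by 0.77 ± 0.09 in E46 and 0.84 ± 0.09 in A2/12, and Rrm2b, the ribonucleotide reductase small subunit used outside S phase, by 0.95 ± 0.20 and 0.79 ± 0.20. Umps, which completes UMP synthesis, rose by 0.43 ± 0.07 in E46 and 0.73 ± 0.07 in A2/12. Dck, the deoxycytidine kinase, fell by 0.71 ± 0.12 in E46 and 0.55 ± 0.12 in A2/12.

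**Figure D2:**
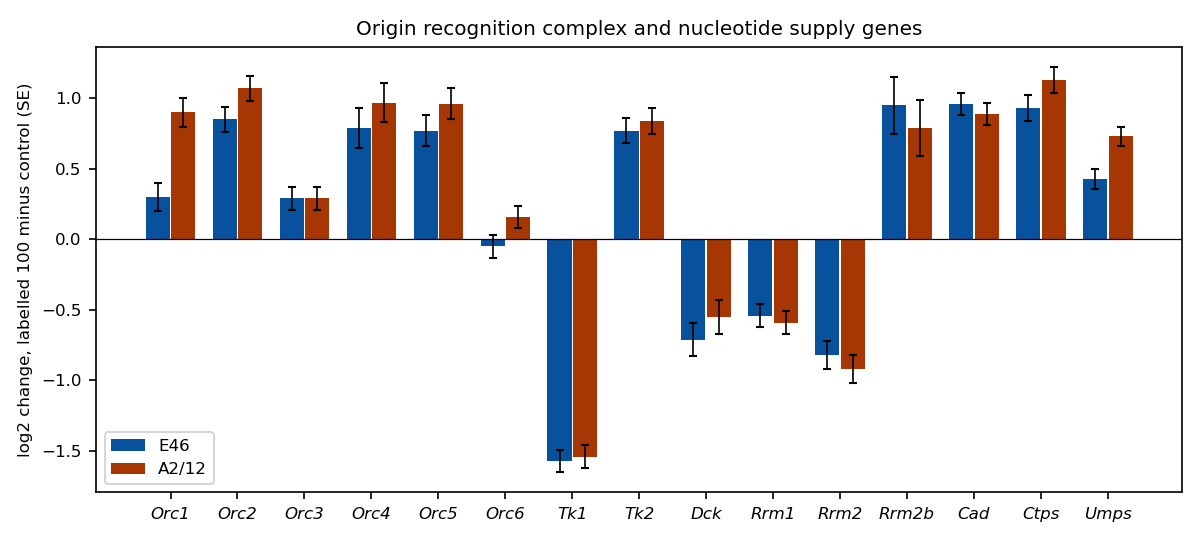
Log2 change with serotonin labelled 100 against controls (bars, ± SE, 4 arrays in each group) in E46 (blue) and A2/12 (orange) for genes of the origin recognition complex and of nucleotide supply. Tk1, Dck, Rrm1 and Rrm2 lie below 0 in both lines, while Tk2, Rrm2b, Cad, Ctps and Umps lie above 0.

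Among the 12 licensing members, 3 rose and 4 fell in E46 (39.6% of all genes were called), and 5 rose and 1 fell in A2/12 (45.9% of all genes were called). Orc2, a subunit of the origin recognition complex, had the largest increase of all members in both lines. Its level was 9.58, 9.77, 9.77 and 9.74 in E46 with serotonin labelled 100, against 8.61, 8.94, 9.03 and 8.89 in controls. In A2/12 it was 9.79, 9.78, 9.62 and 9.74 with serotonin labelled 100, against 8.43, 8.63, 8.70 and 8.88 in controls. The serotonin arrays of both lines lay close together and above all controls. Orc2 rose by 0.85 ± 0.09 in E46 (adjusted p = 1.63e-07) and by 1.07 ± 0.09 in A2/12 (adjusted p = 2.92e-09).

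Orc1, the ATPase subunit of the complex, was 8.01, 8.26, 8.21 and 8.15 in E46 with serotonin labelled 100, against 7.57, 7.90, 8.06 and 7.93 in controls. The A2/12 levels were 8.68, 8.66, 8.61 and 8.51, against 7.74, 7.63, 7.77 and 7.74 in controls. The E46 groups overlapped and the A2/12 groups did not. Orc1 rose by 0.30 ± 0.10 in E46 (adjusted p = 0.0207) and by 0.90 ± 0.10 in A2/12 (adjusted p = 1.31e-07), and the responses differed by -0.60 ± 0.14 (adjusted p = 0.00297). In E46 it was no longer called on leaving out E46 control replicate 1 (0.20, adjusted p = 0.102), E46 100 replicate 2 (0.26, adjusted p = 0.0681) or E46 100 replicate 3 (0.28, adjusted p = 0.0541). Orc6, which is bound less tightly to the complex, was called in neither line (-0.05 ± 0.08 and 0.16 ± 0.08). The other 3 subunit genes, chosen after their values were seen, all rose: Orc3 by 0.29 ± 0.08 in both lines, Orc4 by 0.79 ± 0.14 in E46 and 0.97 ± 0.14 in A2/12, and Orc5 by 0.77 ± 0.11 and 0.96 ± 0.11.

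Cdt1 and Cdc6, which load the helicase together, did not move alike in E46. Cdt1 stood at 10.90, 10.98, 10.98 and 10.98 in E46 with serotonin labelled 100, against 10.38, 10.20, 10.30 and 10.35 in controls. It rose by 0.65 ± 0.07 in E46 (adjusted p = 1.23e-07) and by 0.67 ± 0.07 in A2/12 (adjusted p = 5.42e-08), where it was 10.67, 10.76, 10.63 and 10.74 against 10.19, 9.92, 10.04 and 9.97. Groups did not overlap in either line. Cdc6 was 7.49, 7.45, 7.33 and 7.52 in E46 with serotonin labelled 100, against 8.02, 8.09, 8.22 and 8.14 in controls. The A2/12 levels were 8.12, 8.13, 8.15 and 7.96 with serotonin labelled 100, against 7.95, 8.18 and 8.16 in control replicates 2 to 4 and slightly above these in replicate 1, so the groups overlapped. Cdc6 fell by 0.67 ± 0.09 in E46 (adjusted p = 4.99e-06), while the A2/12 change was -0.03 ± 0.09 (not called, adjusted p = 0.826), and the responses differed by -0.63 ± 0.13 (adjusted p = 0.00109).

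Gmnn, which encodes geminin, the inhibitor of Cdt1, averaged 5.33 ± 0.11 in E46 with serotonin labelled 100 and 5.72 ± 0.14 in controls (SD, n = 4 each), and fell by 0.39 ± 0.08 (adjusted p = 0.000225). In A2/12 it averaged 5.48 ± 0.06 and 5.33 ± 0.07, a change of 0.15 ± 0.08 that missed the threshold (adjusted p = 0.118). The difference of responses was -0.54 ± 0.11 (adjusted p = 0.000658). With the mean over both Gmnn probe sets, of which the other averaged 3.65 over all arrays, below the receptor level, neither the E46 change (-0.19, adjusted p = 0.0655) nor the difference (-0.30, adjusted p = 0.0611) was called.

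The Mcm2-7 helicase genes moved little and not together. Mcm4 fell by 0.27 ± 0.07 in E46 (adjusted p = 0.00328), where it averaged 11.10 ± 0.07 with serotonin labelled 100 and 11.37 ± 0.09 in controls, and its change of -0.08 ± 0.07 in A2/12 was not called. Mcm6 fell in both lines, by 0.17 ± 0.07 in E46 (adjusted p = 0.0469) and by 0.26 ± 0.07 in A2/12 (adjusted p = 0.00207). In E46 that call was lost on leaving out any single array of the 8 other than E46 control replicate 1, with changes of -0.18 to -0.14 and adjusted p up to 0.141 (without E46 control replicate 3). Mcm2 rose by 0.24 ± 0.06 (adjusted p = 0.00272) and Mcm7 by 0.16 ± 0.06 (adjusted p = 0.022) in A2/12, the call of Mcm7 being lost without A2/12 100 replicate 1 (0.14, adjusted p = 0.0726). In E46 neither was called, at 0.14 ± 0.06 and 0.08 ± 0.06. Mcm3 was called in neither line (0.00 ± 0.05 and 0.10 ± 0.05), nor was Mcm5 (-0.17 ± 0.07 and -0.12 ± 0.07). Without E46 control replicate 1, Mcm2 (0.17, adjusted p = 0.0369) and Mcm5 (-0.25, adjusted p = 0.00312) were called in E46.

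**Figure D3:**
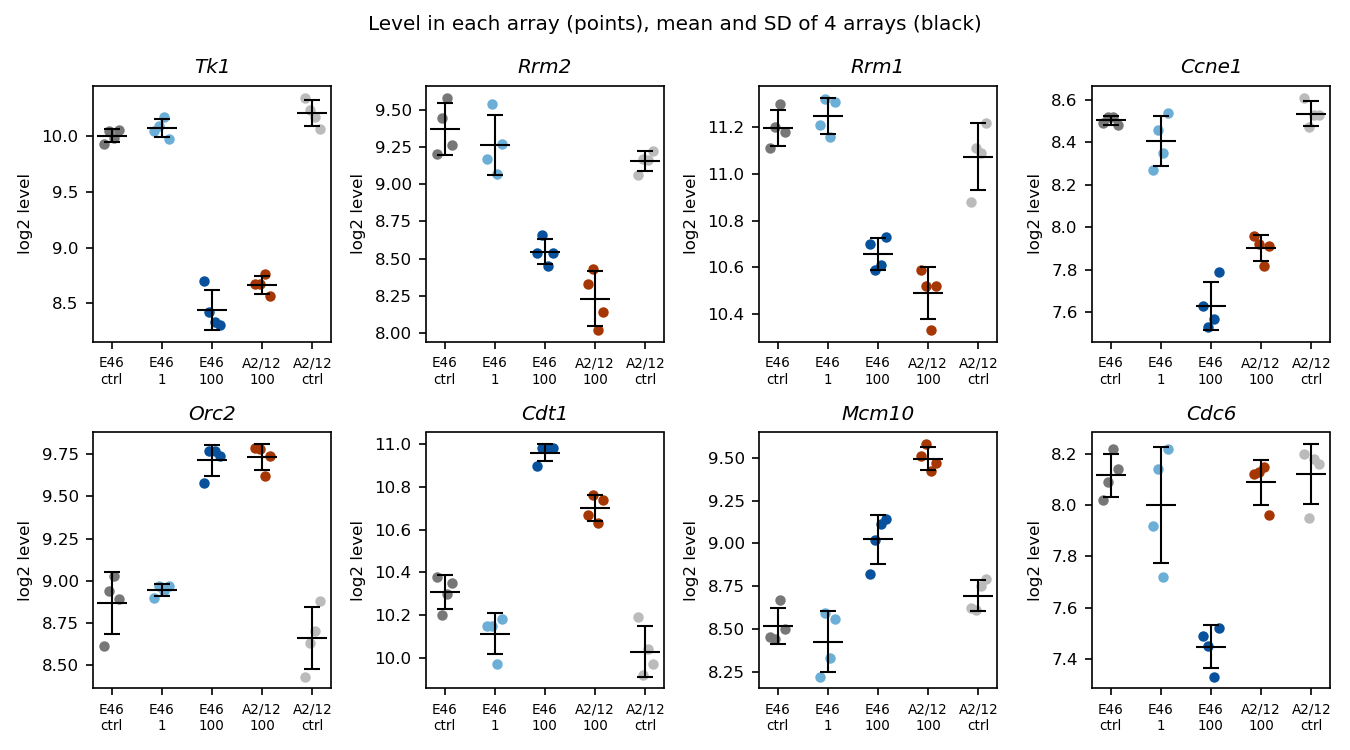
Log2 level of selected members on each array, by group, with the mean and SD of 4 arrays in black. In both lines Tk1 and Rrm2 lie lower, and Orc2, Cdt1 and Mcm10 higher, on the arrays with serotonin labelled 100 than on the controls, without overlap.

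Of the 5 members that act in origin firing and helicase activation, 1 rose in E46 (beside 20.3% of all genes higher), 4 rose in A2/12 (beside 24.8% of all genes higher), and none fell in either line. Mcm10, which binds the helicase as it is activated, stood at 8.82, 9.02, 9.11 and 9.14 in E46 with serotonin labelled 100, against 8.45, 8.44, 8.67 and 8.50 in controls. Its A2/12 levels were 9.51, 9.58, 9.42 and 9.47, against 8.62, 8.61, 8.75 and 8.79 in controls. Neither pair of groups overlapped. Mcm10 rose by 0.51 ± 0.09 in E46 (adjusted p = 9.13e-05) and by 0.80 ± 0.09 in A2/12 (adjusted p = 1.62e-07), and the difference of -0.30 ± 0.13 was not called (adjusted p = 0.109).

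Gins3, a subunit of the GINS complex, was 8.43, 8.59, 8.53 and 8.60 in E46 with serotonin labelled 100, against 8.46, 8.70, 8.67 and 8.69 in controls. A2/12 levels were 9.64, 9.55, 9.45 and 9.64, against 8.87, 8.96, 8.97 and 9.11 in controls. The groups overlapped in E46 and not in A2/12. The E46 change of -0.09 ± 0.09 was not called (adjusted p = 0.463), the A2/12 increase was 0.59 ± 0.09 (adjusted p = 5.17e-06), and the difference of -0.69 ± 0.12 was the largest of any member (adjusted p = 0.000213). The GINS subunit gene Gins1 rose by 0.34 ± 0.08 in A2/12 (adjusted p = 0.000813) and was not called in E46 (0.14 ± 0.08). Gins4 rose by 0.16 ± 0.06 in A2/12 (adjusted p = 0.0412), but that call was lost without any 1 of 6 of the 8 arrays (A2/12 control replicates 1, 2 and 4 and A2/12 100 replicates 1, 3 and 4), with changes of 0.14 to 0.17 and adjusted p of 0.0554 to 0.116. Cdc45, the helicase cofactor, was called in neither line (-0.09 ± 0.06 and 0.11 ± 0.06).

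Prim2, the large subunit of primase, fell in both lines. Its level was 10.25, 10.23, 10.25 and 10.32 in E46 with serotonin labelled 100, against 10.53, 10.60, 10.53 and 10.49 in controls. The levels in A2/12 were 9.61, 9.50, 9.44 and 9.49, against 10.06, 10.30, 10.33 and 10.25 in controls. No serotonin array reached a control array of its line. Prim2 fell by 0.28 ± 0.07 in E46 (adjusted p = 0.00147) and by 0.72 ± 0.07 in A2/12 (adjusted p = 6.82e-09), and it was the one member whose difference of responses was called higher in E46 (0.44 ± 0.09, adjusted p = 0.0011). Its partner Prim1, the catalytic subunit, was called in neither line (-0.02 ± 0.09 and 0.11 ± 0.09).

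Of the polymerase genes, Pola1, the catalytic subunit of polymerase alpha, fell by 0.45 ± 0.13 in A2/12 (adjusted p = 0.00793) with overlapping groups, and Pold1, that of polymerase delta, rose by 0.41 ± 0.09 (adjusted p = 0.000556). In E46 neither was called (-0.15 ± 0.13 and 0.02 ± 0.09). The responses of Pold1 differed by -0.39 ± 0.12 (adjusted p = 0.0284). That call was lost without any 1 of 5 of the 16 arrays (E46 control replicate 4, E46 100 replicate 1, A2/12 control replicate 2 and A2/12 100 replicates 3 and 4), with differences of -0.36 to -0.32 and adjusted p of 0.0567 to 0.0664. Pola2, the accessory subunit of polymerase alpha, and Pole, the catalytic subunit of polymerase epsilon, were called in neither line.

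Pcna, the sliding clamp, stood at 12.42, 12.35, 12.35 and 12.39 in E46 with serotonin labelled 100, against 12.47, 12.62, 12.63 and 12.64 in controls. On the A2/12 arrays it was 12.48, 12.57, 12.40 and 12.46, against 12.40, 12.59, 12.48 and 12.54 in controls. The E46 groups lay close but did not overlap, and the A2/12 groups did. Pcna fell by 0.21 ± 0.06 in E46 (adjusted p = 0.0082) and was not called in A2/12 (-0.02 ± 0.06), and the difference of -0.19 ± 0.09 was not called (adjusted p = 0.142).

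Rfc3 and Rfc5 are subunits of the clamp loader. Rfc3 was 9.88, 9.91, 9.90 and 10.03 in E46 with serotonin labelled 100, against 10.00, 10.06, 10.25 and 10.12 in controls, and in A2/12 it was 9.90, 9.85, 9.79 and 9.99, against 9.75, 9.81, 9.84 and 9.94. Both pairs overlapped. It fell by 0.18 ± 0.07 in E46 (adjusted p = 0.0491), a call lost without any 1 of 6 of the 8 arrays (E46 control replicates 2, 3 and 4 and E46 100 replicates 1, 2 and 3), with changes of -0.19 to -0.13 and adjusted p of 0.0558 to 0.181. Rfc5 was 10.73, 10.61, 10.43 and 10.80 in A2/12 with serotonin labelled 100, against 10.85, 10.87, 10.87 and 11.01 in controls, without overlap, and in E46 it was 10.63, 10.74, 10.92 and 10.83, against 11.04, 10.82, 10.74 and 10.87, with overlap. It fell by 0.26 ± 0.08 in A2/12 (adjusted p = 0.0146), a call lost without A2/12 control replicate 4 (-0.22, adjusted p = 0.0536) and without A2/12 100 replicate 3 (-0.19, adjusted p = 0.0734). In E46 its change of -0.09 ± 0.08 was not called.

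Of the genes that finish the lagging strand, Lig1 fell in both lines and Fen1 was called in opposite directions. Lig1, the replicative DNA ligase, was 9.38, 9.31, 9.51 and 9.45 in E46 with serotonin labelled 100, against 9.78, 9.86, 10.01 and 10.04 in controls. For A2/12 the values were 9.59, 9.57, 9.56 and 9.64, against 10.11, 10.05, 10.14 and 10.08 in controls. Neither pair overlapped, and Lig1 fell by 0.51 ± 0.07 in E46 (adjusted p = 9.62e-06) and by 0.50 ± 0.07 in A2/12 (adjusted p = 7.9e-06). The difference was -0.01 (95% confidence interval -0.23 to 0.21).

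Fen1, the flap endonuclease that trims RNA primers, was the one member with such opposite calls, beside 1.74% of all genes. Its level was 8.35, 8.40, 8.29 and 8.34 in E46 with serotonin labelled 100, against 8.72, 8.83, 8.77 and 8.66 in controls. On A2/12 arrays Fen1 was 8.37, 8.38, 8.32 and 8.21, against 8.28, 7.96, 8.08 and 8.01 in controls. The groups overlapped in A2/12 and not in E46. The serotonin arrays of both lines were alike, while the controls of E46 lay above those of A2/12. Fen1 fell by 0.40 ± 0.08 in E46 (adjusted p = 0.000403) and rose by 0.24 ± 0.08 in A2/12 (adjusted p = 0.0206), and the responses differed by -0.64 ± 0.12 (adjusted p = 0.000281). The A2/12 call was lost without A2/12 control replicate 2 (0.20, adjusted p = 0.0762), A2/12 control replicate 4 (0.21, adjusted p = 0.0601), A2/12 100 replicate 1 (0.22, adjusted p = 0.0561) or A2/12 100 replicate 2 (0.22, adjusted p = 0.0576). A second Fen1 probe set changed by -0.41 in E46 and 0.27 in A2/12. Rpa2, a subunit of the protein that coats single-stranded DNA, fell by 0.33 ± 0.07 in E46 (adjusted p = 0.000518), was not called in A2/12 (0.04 ± 0.07) and had a difference of -0.37 ± 0.10 (adjusted p = 0.00808).

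Ccne1 encodes cyclin E1, which drives entry into S phase with Cdk2. Its level was 7.63, 7.53, 7.57 and 7.79 in E46 with serotonin labelled 100, against 8.49, 8.52, 8.52 and 8.48 in controls, and in A2/12 it was 7.96, 7.92, 7.82 and 7.91, against 8.61, 8.47, 8.53 and 8.53. All serotonin arrays lay below all controls. Ccne1 fell by 0.87 ± 0.07 in E46 (adjusted p = 2.09e-09) and by 0.64 ± 0.07 in A2/12 (adjusted p = 1.23e-07), and the difference of -0.24 ± 0.10 was not called (adjusted p = 0.0951). It was called under 4 of 33 alternatives, among them leaving out E46 100 replicate 4 (-0.29, adjusted p = 0.037).

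E2f1, an activating E2F factor, was 9.58, 9.64, 9.76 and 9.76 in E46 with serotonin labelled 100, against 9.69, 9.69, 9.74 and 9.75 in controls, and changed by -0.03 ± 0.07, which was not called. For A2/12 the levels were 10.13, 10.18, 10.22 and 10.24, against 10.04, 9.83, 9.99 and 10.00 in controls, without overlap, and it rose by 0.22 ± 0.07 (adjusted p = 0.00793). The difference of the responses was -0.25 ± 0.09 and was not called (adjusted p = 0.0585). It was called under 7 of 33 alternatives, among them leaving out A2/12 control replicate 1 (-0.28, adjusted p = 0.0411) and quantile normalization (-0.27, adjusted p = 0.0196). The chromatin assembly factor genes Chaf1a and Chaf1b, whose products place histones on new DNA, were called in neither line. Chaf1a was 8.31, 8.30, 8.48 and 8.31 in E46 with serotonin labelled 100, against 8.37, 8.48, 8.58 and 8.44 in controls (-0.11 ± 0.09), and 8.82, 8.90, 8.86 and 8.96 in A2/12 with serotonin labelled 100, against 9.04, 8.87, 9.04 and 8.91 in controls (-0.08 ± 0.09). Chaf1b was 10.66, 10.71, 10.57 and 10.76 in E46 with serotonin labelled 100, against 10.53, 10.68, 10.63 and 10.75 in controls (0.03 ± 0.07), and 10.72, 10.61, 10.65 and 10.62 in A2/12 with serotonin labelled 100, against 10.40, 10.59, 10.64 and 10.51 in controls (0.12 ± 0.07). The groups of both genes overlapped in both lines.

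The difference of the responses, taken as the E46 change minus the A2/12 change, was called for 8 members, 1 higher and 7 lower, beside 22.0% of all genes (11.1% higher and 10.9% lower). The 7 lower ones, Gins3, Fen1, Cdc6, Orc1, Gmnn, Pold1 and Rpa2, belong to 4 roles, and the higher one was Prim2. The median difference was -0.15 over the members and -0.02 over all genes. Without the 2 control arrays that stood apart, again 1 was higher and 7 were lower. In both lines together, 4 members rose in both (16.0% of all genes), 7 fell in both (12.8%), 6 were called in E46 but not A2/12 (8.99%), 9 in A2/12 but not E46 (15.3%) and 9 in neither (45.1%). Those that fell in both were Mcm6, Prim2, Lig1, Tk1, Rrm1, Rrm2 and Ccne1. The changes in the lines, across the 36 genes and not across independent samples, correlated with a Pearson r of 0.87 and a Spearman rho of 0.78, against 0.69 and 0.64 across all genes tested. These sets are unlike, since all genes tested include genes below the receptor level and the members do not. The correlations therefore do not show closer agreement of the lines for the members. The E46 and A2/12 comparisons share no arrays.

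**Figure D4:**
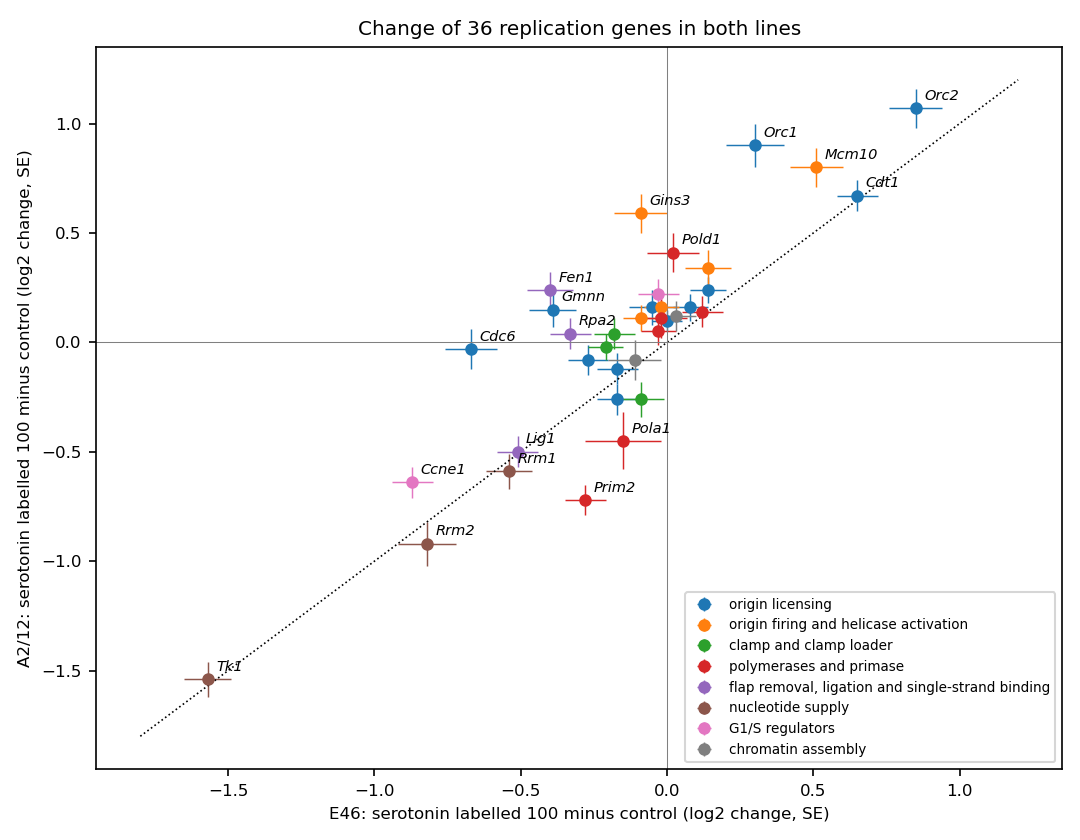
Log2 change with serotonin labelled 100 against controls in E46 (horizontal axis) and A2/12 (vertical axis) for the 36 members (points coloured by role, bars ± SE, dotted line for equal change). Tk1 lies farthest down in both lines and Orc2 farthest up, and Fen1 lies on opposite sides of 0.

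**Figure D5:**
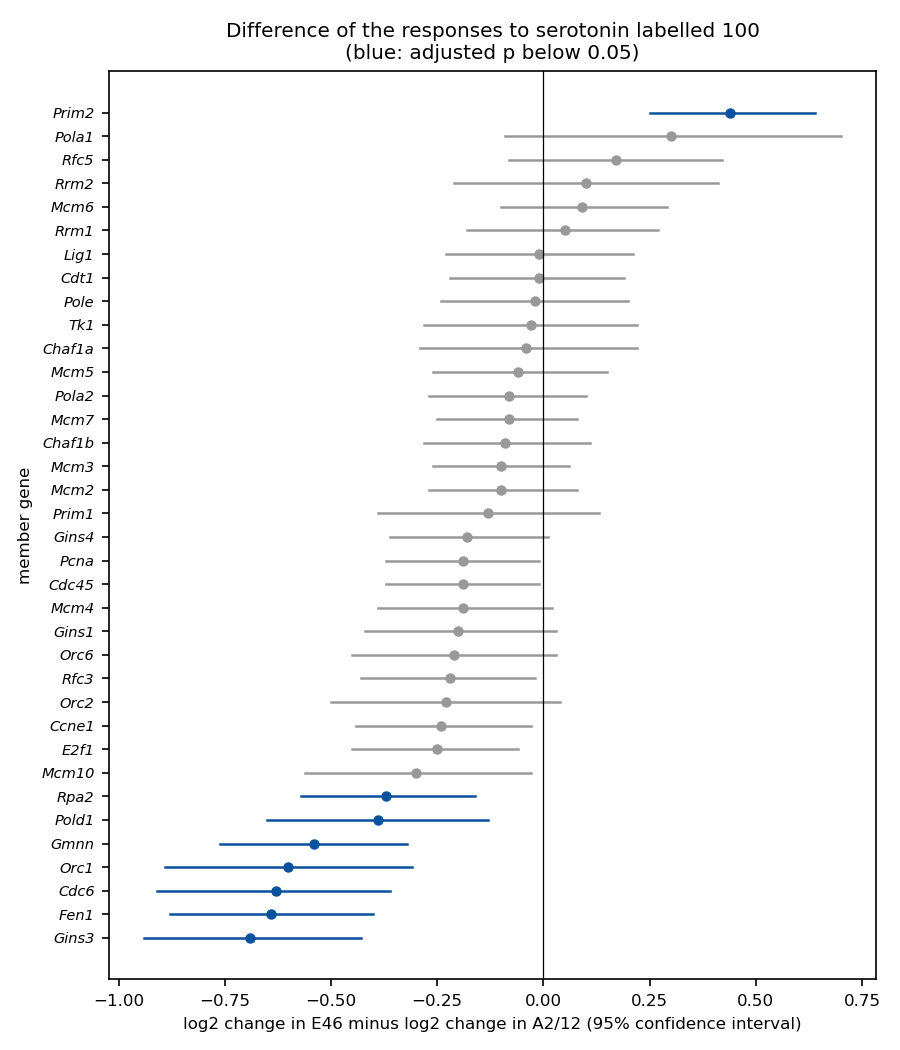
Difference of the responses to serotonin labelled 100 for each member (E46 log2 change minus A2/12 log2 change, points) with its 95% confidence interval (lines). The 8 called members are in blue: Prim2 lies above 0 (0.44), and 7 lie below, the lowest being Gins3 (-0.69).

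In E46 with serotonin labelled 1, no member was called by limma, beside 2 of all genes (0.0106%, with 0.00531% higher and 0.00531% lower). At an unadjusted p below 0.05 there were 4 members (Cdt1, Pole, E2f1 and Chaf1a) and 2993 genes, and the smallest adjusted p of a member was 0.204, for Chaf1a (-0.28). Member changes lay between -0.28 and 0.14 with a median of -0.03, and their 95% confidence intervals reached from -0.46 to 0.34. Without the 2 control arrays that stood apart, again no member was called. For 6 members the groups did not overlap (6.39% of all genes): Prim1 and Prim2 were higher (1.64% of all genes) and Cdt1, Mcm2, Mcm7 and E2f1 lower (4.76%). Prim2 was 10.63, 10.74, 10.63 and 10.63 with serotonin labelled 1, against 10.53, 10.60, 10.53 and 10.49 in controls. Cdt1 was 10.15, 10.15, 9.97 and 10.18, against 10.38, 10.20, 10.30 and 10.35 in controls. Set against the arrays labelled 1, those labelled 100 had 7 members higher and 12 lower, beside 41.4% of all genes (23.6% higher and 17.8% lower). If the other dose label is right, the E46 groups change names: the 4 increases and 14 decreases would belong to the lower dose, and the difference of responses would compare that dose with 100 in A2/12.

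Without serotonin the lines already differed in some members. Between E46 controls and A2/12 controls, 12 members were higher and 4 lower in E46, beside 39.1% of all genes (21.1% higher and 18.1% lower), with a median difference of 0.13 over the members and 0.03 over all genes. Without the 2 arrays that stood apart, 10 were higher and 3 lower. Fen1 averaged 8.74 ± 0.07 in E46 controls and 8.08 ± 0.14 in A2/12 controls (SD, n = 4 each), the largest difference (0.66 ± 0.08, adjusted p = 1.01e-06). Chaf1a averaged 8.46 ± 0.09 and 8.96 ± 0.09 (-0.50 ± 0.09, adjusted p = 6.76e-05), and Gins3 8.63 ± 0.11 and 8.97 ± 0.10 (-0.34 ± 0.09, adjusted p = 0.00257). Gmnn (0.39 ± 0.08), Prim1 (0.36 ± 0.09) and Prim2 (0.30 ± 0.07) were higher in E46. Tk1, Rrm1, Rrm2 and Ccne1 were not called between the controls. Under the alternatives Tk1 was called lower in E46 in 4, among them without A2/12 control replicate 4 (-0.25, adjusted p = 0.036), and Rrm2 higher in 4 and Rrm1 in 1, among them median centring for both (0.28, adjusted p = 0.0164, and 0.18, adjusted p = 0.0293). These E46 controls and A2/12 controls also enter the difference of responses.

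Of 101 other measured genes of the pathway, 34 rose and 32 fell in E46 with serotonin labelled 100 (65.3% called), and 42 rose and 29 fell in A2/12 (70.3% called), beside 39.6% and 45.9% of all genes. The shares of all genes again include genes below the receptor level. Among the 31 regulators of the G1/S step, 8 rose and 15 fell in each line. Myc, a growth-promoting transcription factor, rose by 1.72 ± 0.07 in E46 and 2.08 ± 0.07 in A2/12, while the kinase inhibitor genes Cdkn2c (-1.53 ± 0.11 and -2.40 ± 0.11) and Cdkn2b (-1.16 ± 0.09 and -1.78 ± 0.09) fell in both. Ccnd1, the gene of cyclin D1, fell by 1.46 ± 0.08 in E46, and its change of 0.10 ± 0.08 in A2/12 was not called. Ccnd2, the gene of cyclin D2, rose by 1.29 ± 0.10 in A2/12. In E46, Ccnd2 averaged 10.58 ± 0.15 with serotonin labelled 100 and 9.67 ± 0.13 in controls (SD, n = 4 each). E2f7, a repressing E2F factor, fell by 1.30 ± 0.09 in E46 and 0.98 ± 0.09 in A2/12. Cdkn1a, which encodes the kinase inhibitor p21, rose by 0.46 ± 0.10 in E46 and 1.27 ± 0.10 in A2/12, and Mcm8, a relative of the helicase genes that acts in DNA repair, by 0.95 ± 0.10 and 1.63 ± 0.10.

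Markers of mitosis fell alongside. Of 17 measured, 11 fell and none rose in E46 (median -0.38), and 16 fell and none rose in A2/12 (median -0.81), where 19.3% and 21.1% of all genes were lower. One of them was Mki67, at 9.72 ± 0.10 with serotonin labelled 100 and 10.72 ± 0.14 in controls in E46, and 8.64 ± 0.19 and 10.63 ± 0.15 in A2/12. Per array, the mean change of the mitosis markers lay between -0.42 and -0.33 in E46 with serotonin labelled 100, against -0.15 to 0.07 in E46 controls. In A2/12 it lay between -1.17 and -0.96 with serotonin labelled 100, against -0.09 to 0.08 in controls. The E46 minus A2/12 difference of responses was called for 12 of the 17 mitosis markers, all higher, with a median of 0.70. Of all genes, 11.1% were called higher in that difference. Markers of some other cell types also fell. Of 7 fibroblast and mesenchymal markers, 6 fell in E46 (median -1.29) and 5 in A2/12 (median -3.04), and none rose. Their mean level per array was 7.17 to 7.86 in E46 with serotonin labelled 100, against 8.86 to 8.99 in E46 controls, and 7.74 to 8.36 in A2/12 with serotonin labelled 100, against 10.17 to 10.33 in controls. The collagen gene Col1a1 fell by 2.41 ± 0.18 in E46 and 3.54 ± 0.18 in A2/12. Of 9 astrocyte and progenitor markers, 6 fell and none rose in E46 (median -0.44), and 4 fell and 1 rose in A2/12 (median -0.04), with Gfap and Aqp4 not above the receptor level in any group. S100b, which fell in both lines, was above that level only in E46 controls. Sox2, the 1 that rose in A2/12, was not above it in A2/12 controls (4.13), nor was Fabp7 in A2/12 with serotonin labelled 100. Of the 11 neuron markers, 2 fell in E46 (18.2%) and 3 in A2/12 (27.3%), and none rose. These shares lie near the 19.3% and 21.1% of all genes that were lower. Of 7 macrophage and microglia markers, only Cd68 was called, higher in both lines (0.60 ± 0.22 and 0.79 ± 0.22). Of 8 intestinal markers, none was called in E46 and 1 fell in A2/12. Both of these counts keep the 2 control arrays that stood apart for such markers. The SD was 2.45 for Lyz2 in A2/12 controls and 1.73 for Reg3g in E46 controls, so a missing call says little here. The part of these markers in the changes of the replication genes was not tested. In these bulk samples fewer cells in S phase and less of an mRNA per cell cannot be told apart.

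Scan names give each array a position number (5, 7 or 9), and each number occurs in every group. With the number as a block, 4 members rose and 13 fell in E46, and 11 rose and 9 fell in A2/12. Within the single numbers Tk1 changed by -1.67, -1.55 and -1.57 in E46 and by -1.45, -1.63 and -1.51 in A2/12, and Orc2 by 1.02, 0.72 and 0.74 in E46 and by 0.97, 1.14 and 1.08 in A2/12. The responses of Gins3 differed by -0.51, -0.87 and -0.66 and those of Fen1 by -0.57, -0.82 and -0.66. The same names give row letters, and only rows B (E46 control replicate 4 with E46 100 replicates 1 and 2), C (E46 100 replicates 3 and 4 with E46 1 replicate 1) and F (A2/12 control replicate 4 with A2/12 100 replicates 1 and 2) hold arrays of 2 groups. Within row B all 18 members called in E46 moved in the direction of the whole comparison, and within row F all 21 called in A2/12 did. The arrays of these rows also gave the calls, and a member whose groups do not overlap keeps its direction in any part of them. The shared directions are therefore no separate check of the row. Tk1 changed by -1.50 in row B and -1.40 in row F, and Orc2 by 0.78 and 0.91. Fen1 changed by -0.29 and 0.36, and Gins3 by -0.18 and 0.49. With the row as a block, which rests on the 3 arrays of such a row, 3 members rose and 7 fell in E46, 5 rose and 7 fell in A2/12, and the difference was called for Gmnn alone (-0.69, adjusted p = 0.046). The E46 calls lost were those of Orc1, Mcm4, Mcm6, Pcna, Rfc3, Prim2, Fen1 and Rpa2, and the A2/12 calls lost were those of Mcm2, Mcm6, Mcm7, Gins1, Gins4, Rfc5, Pold1, Fen1 and E2f1. Rows of E46 hold no A2/12 array, so for the controls a row and a line cannot be told apart. Leaving out 4 arrays with a low upper quartile (E46 control replicate 1, E46 1 replicates 1 and 3 and A2/12 control replicate 2) gave 5 higher and 15 lower members in E46, 11 higher and 10 lower in A2/12, and 1 higher and 8 lower for the difference.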

How the data were processed

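Total RNA of 20 samples was hybridised to Affymetrix mouse gene arrays. Per the submitters' processing notes, the deposited log2 values are the authors' RMA output (version not given in the sources used here), which corrects background, normalizes between arrays and summarises probes. The table holds 35556 probe sets, of which 21218 have a single symbol in the platform annotation, 1881 several and 12457 none. Only the first kind was used, with the probe set of the highest mean per gene, which left 18820 genes. Low levels compress folds.

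Groups and doses follow the titles. All 20 arrays entered 1 linear model with a mean for each group (limma 3.58.1 under R 4.3.3, leaving 15 residual degrees of freedom), then eBayes and Benjamini-Hochberg adjustment over all genes. Calls were made where the adjusted p lay below 0.05. Changes had a median standard error of 0.100 over all genes (0.142 for the difference of responses). The code was tested on simulated data. Promoters came from RefSeq (GRCm38.p6). Figures used matplotlib 3.10.9.

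The members, the other pathway genes and the markers were chosen with earlier results of these data known, so their counts are descriptions. Values of every array are given for the member of largest change in its role in each main comparison, and for Orc1, Cdt1, Rrm2 and others where the text compares them. Pathway genes are named up to 4 in each direction by adjusted p, and others are said to be chosen after their values were seen.

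Alternatives were quantile normalization or median centring of the arrays, the replicate or the position number as a block, single position numbers, each line by itself, array weights, trended and robust eBayes, omission of dim genes, other choices of probe set, testing against a fold of 1.2, the crossed dose label and omission of each array. Chosen after seeing the data were leaving out 4 arrays with an upper quartile under 8.2 or the 2 control arrays with markers of other cells, the upper quartile as a covariate, and the row letter of the scan names as a block.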

Additional observations from a re-analysis of the deposited data

Results flagged for a closer look

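For 13 of 180 combinations of member and group, 1 array of the 4 lay far from the other 3 by Dixon's test at 95%, a rule that chance alone meets in about 5% of groups. All 4 in the E46 controls were replicate 1, low for Mcm4 (11.24, others 11.40 to 11.42), Gins3 (8.46, others 8.67 to 8.70), Pcna (12.47, others 12.62 to 12.64) and Prim1 (9.92, others 10.16 to 10.20). In E46 with serotonin labelled 1 they were Cdt1 in replicate 3 (9.97, low), Mcm2 in replicate 1 (11.33, low) and Prim2 in replicate 2 (10.74, high). In E46 with serotonin labelled 100 they were Cdt1 in replicate 1 (10.90, low) and Chaf1a in replicate 3 (8.48, high). In A2/12 with serotonin labelled 100 it was Cdc6 in replicate 4 (7.96, low). In A2/12 controls they were Orc6 (9.49, low) and Prim1 (9.55, low) in replicate 1 and Rfc5 in replicate 4 (11.01, high).

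For 8 members the response to serotonin labelled 100 differed between the lines by a test of the difference itself. The E46 minus A2/12 difference was -0.69 for Gins3, -0.64 for Fen1, -0.63 for Cdc6, -0.60 for Orc1, -0.54 for Gmnn, -0.39 for Pold1, -0.37 for Rpa2 and 0.44 for Prim2, beside calls for 22.0% of all genes.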

How the results depend on the processing

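No change of a single member turned its sign and was called, in the main setting or the other, under the alternatives other than the crossed dose label, for which single members were not recomputed. On leaving out single arrays, 3 to 4 members were higher and 12 to 15 lower in E46 with serotonin labelled 100 (median -0.14 to -0.07), and none was called with serotonin labelled 1. The same gave 5 to 8 higher and 12 to 13 lower for labelled 100 against labelled 1, 9 to 12 higher and 8 to 9 lower in A2/12, 1 higher and 6 to 8 lower for the difference of responses, and 10 to 16 higher and 3 to 5 lower between the controls of the lines. With the replicate number as a block, 4 members were higher and 13 lower in E46, 12 higher and 9 lower in A2/12, 1 higher and 7 lower for the difference, and 13 higher and 4 lower between control lines. The numbers did not pair the samples (40 correlations of deviations from -0.55 to 0.41, 12 of them over 0.1). The block removed the E46 calls of Mcm6 (adjusted p = 0.0529) and Rfc3 (adjusted p = 0.0541) and added Mcm5 in E46 (adjusted p = 0.0411) and Gins1 between the lines (adjusted p = 0.0372). Position numbers alone hold few arrays. Number 5 alone gave 3 higher and 4 lower in E46, a median of 0.07 for labelled 1, 1 higher and 4 lower for 100 against 1, 3 higher and 5 lower in A2/12, 0 and 0 for the difference and 1 and 1 between lines. Number 7 alone gave 2 higher and 7 lower in E46, 4 and 4 for 100 against 1, 6 higher and 6 lower in A2/12, 0 and 2 for the difference and 1 and 0 between lines. Number 9 alone gave 0 higher and 1 lower in E46, 0 and 1 for 100 against 1, 1 and 1 in A2/12, and 0 and 0 for the difference and between lines. With a fold threshold of 1.2, 3 were higher and 6 lower in E46, 3 higher and 5 lower for 100 against 1, 5 higher and 6 lower in A2/12, 0 higher and 2 lower for the difference and 1 and 1 between lines. With the other dose label, E46 at 100 had 0 and 0, E46 at 1 had 4 higher and 14 lower, 100 against 1 had 12 higher and 7 lower, and the difference had 8 higher and 10 lower. With the row letter as a block, 3 were higher and 7 lower in E46, 6 and 6 for 100 against 1 (median 0.01), 5 and 7 in A2/12, and 0 and 1 for the difference, and the median for labelled 1 was -0.17. The lower members of the difference were 13 with array weights, 11 with quantile normalization and 11 with the upper quartile as a covariate, which also gave 19 lower for 100 against 1 (median -0.22). Median centring gave 21 higher between the control lines. The differences of Mcm10 and Pcna, not called in the main setting, were called under 3 of 33 alternatives each. Causes of these shifts were not tested. The single positions and the row block rest on fewer arrays, and the other dose label exchanges the names of the E46 doses.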
